A study of Mus musculus with 18 samples.

Results

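The comparison set the arrays of mouse dendritic cells after 4 h of lipopolysaccharide (LPS), a cell wall component of Gram-negative bacteria, against those after 2 h. Members were chosen from the labels by time alone: 3 arrays at 4 h and 3 arrays at 2 h, together 6 of the 18 arrays of the series, paired by condition. The cells were grown from bone marrow of C57BL/6 mice or of Cd14-/- mice of that strain, aged 6-8 weeks. Marrow was cultured for 7-10 days with supernatant of B16 melanoma cells that secrete GM-CSF, and all groups share this culture, which was used once over 90% of cells carried CD11c. The wild type arrays held C57BL/6 cells with 1 µg/ml of smooth LPS for 2 or 4 h. The wild type EGTA arrays held the same cells with 1 µg/ml of LPS and 2 mM EGTA, a chelator that binds extracellular calcium, for 2 or 4 h. The CD14-deficient arrays held Cd14-/- cells with LPS for 2 or 4 h, and no concentration is given for them in the labels. Further arrays at 6, 12 and 24 h of LPS entered the estimate of the spread, and unstimulated cells, harvested 24 h after plating, served as a reference level only. The series was designed to compare LPS responses with and without the calcium signal that activates the transcription factor NFAT. The question addressed here is which genes were being shut off and which were being switched on between these times.

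LPS is recognised by TLR4 with MD-2, and CD14 delivers it to that receptor. The adaptor MyD88 leads within minutes to NF-kB and AP-1, which act on primary response genes that need no new protein, such as Tnf, Cxcl1 and the gene of the NF-kB inhibitor IkBa. The adaptor TRIF, reached after CD14-dependent uptake of TLR4, leads to IRF3 and to interferon beta. Secreted interferon then acts through its receptor on a secondary wave of interferon-stimulated genes. Primary transcripts are removed by feedback, through newly made NF-kB inhibitors, MAP kinase phosphatases and proteins that degrade AU-rich mRNA.

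Levels are log2(quantile-normalised intensity + 16), and changes are differences of such levels (4 h minus 2 h), which understate the fold change of dim genes. Errors are standard errors of a limma fit over the 15 LPS arrays with the condition as a block, so the 3 conditions serve as the pairs. Rose and fell are used for genes with a Benjamini-Hochberg adjusted p under 0.05. Each condition and time was measured on 1 array, and no label says that arrays came from separate cultures or animals. The p-values therefore describe no more than how far these arrays scatter, and part or all of that scatter may be technical. On the 6 arrays the median deposited intensity ran from 77.9 to 88.1 and the RNA integrity number from 9.3 to 10, and the beta-actin probe sets gave 3' over 5' ratios between 1.11 and 1.19. The targeted gene followed its labels. Cd14 was at 13.23 and 13.06 in wild type cells at 2 and 4 h, at 13.03 and 12.79 with EGTA, and at 4.36 and 4.48 in CD14-deficient cells. Its fitted change of -0.10 ± 0.31 did not pass the test.

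Between 2 h and 4 h a large share of the transcriptome moved. Of 7392 genes tested, 1516 rose (20.5%) and 1524 fell (20.6%), around a median change of -0.0048. The counts of each gene list below are to be read beside both shares. The size of most changes was small: 284 genes rose and 179 fell by at least 2-fold, and 43 rose and 12 fell by at least 4-fold. Of the genes that rose, 1505 had a positive change in each of the 3 conditions, and of those that fell, 1511 had a negative one. The test favours genes whose 3 changes agree, so these counts do not measure agreement between the conditions. All 3 arrays at 4 h lay above all 3 at 2 h for 1559 genes (21.1%) and below them for 1569 (21.2%). Without the condition in the fit, 1786 genes were called (941 rose, 845 fell), and with no scaling of the arrays the split was 936 up and 1513 down. Across all tested genes, which are not independent, the change in wild type cells correlated with that in EGTA cells at r = 0.81 and with that in CD14-deficient cells at r = 0.77.

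The rises and the falls took different courses outside the 2 h to 4 h window. Of the 284 genes that rose at least 2-fold, 200 were within 2-fold of the unstimulated mean at 2 h, 76 were already at least 2-fold above it and 8 below. At 6 h 236 of them were above it. The highest mean over the LPS times was at 4 h for 129 of these genes, at 6 h for 102, at 12 h for 31 and at 24 h for 22. By 24 h 99 had dropped at least 2-fold below their 4 h mean. Of the 179 genes that fell at least 2-fold, only 32 had been at least 2-fold above the unstimulated mean at 2 h, while 130 were within 2-fold of it and 17 below. At 6 h 127 of the 179 lay at least 2-fold below the unstimulated mean. The falling genes thus held a smaller set at least 2-fold above the unstimulated mean at 2 h and a larger set that was not. Levels of LPS-treated cells before 2 h were not measured. The unstimulated cells differ in time since plating, and 1 of the 3 unstimulated arrays (EGTA) stood apart at the dim end. Without it the 3 classes of falling genes held 31, 127 and 21 genes.

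The largest fall on the scale used here was that of Il2, the T cell growth factor gene, which calcium and NFAT activate. Il2 stood at 8.81 in wild type cells, 6.82 with EGTA and 8.52 in CD14-deficient cells at 2 h, and at 4.76, 4.70 and 5.05 at 4 h. The mean unstimulated level was 4.47. The EGTA array was the lowest of the 2 h arrays, all 3 arrays at 4 h were near the unstimulated level, and the times did not overlap. The change was -3.21 ± 0.39 (adjusted p = 4.3e-05, lower in 3 of 3 conditions). With the 4 h arrays at the dim end its size depends on the pseudocount (-4.19 with 1 and -2.07 with 64), so no fold is given.

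Ifnb1, the gene of interferon beta, was at 10.35 (wild type), 9.92 (EGTA) and 8.16 (CD14-deficient) at 2 h, and at 8.26, 7.35 and 6.20 at 4 h. The CD14-deficient array was lowest at both times. Its 2 h level lay just under the wild type level at 4 h, so the times overlapped although every condition fell. The change was -2.21 ± 0.33 (adjusted p = 0.00022, 4.62-fold), and at 6 h the mean level of 6.20 was within 2-fold of the unstimulated 5.67.

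Other induced cytokine genes fell with them. Tnfsf9, which encodes the costimulatory ligand 4-1BBL, was at 12.17, 11.62 and 12.36 at 2 h in wild type, EGTA and CD14-deficient cells, and at 9.93, 9.72 and 9.94 at 4 h. The times did not overlap, and the change was -2.19 ± 0.17 (adjusted p = 8.9e-07). Lif, an interleukin 6 family cytokine, was at 9.12, 8.62 and 9.39 at 2 h and at 7.27, 7.24 and 6.67 at 4 h, in the same order, again without overlap (-1.99 ± 0.23, adjusted p = 3.2e-05). Il23a, the p19 subunit of interleukin 23, went from 11.06, 10.78 and 11.11 to 9.48, 8.78 and 9.69 (-1.67 ± 0.38, adjusted p = 0.0040). It remained far above its unstimulated mean of 4.47. Csf2, the GM-CSF gene, fell by 1.24 on the log2 scale. Its EGTA array was the lowest at 2 h (8.43, against a mean of 9.13 over the 3 conditions) and at 4 h (7.49, against 7.89).

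Of the 21 tested genes in the list of primary response cytokines and chemokines, 8 fell, 3 rose and 10 did not pass the test, with a median change of -0.32 against -0.0048 for all genes. With the 6 arrays fitted alone, 10 fell and 7 rose. Besides Il2 and those described above, Ereg, Csf1 and Ccl4 fell. The 3 that rose were Hbegf, an EGF receptor ligand (1.53 ± 0.23), the monocyte chemokine Ccl7 (0.94 ± 0.26) and the anti-inflammatory cytokine Il10 (0.98 ± 0.31, adjusted p = 0.022). The call of Ccl4 (-0.37 ± 0.11) was lost without the wild type array at 4 h or either EGTA array (adjusted p of 0.056 to 0.10), and that of Ccl7 without the wild type array at 2 h or the EGTA array at 4 h (0.061 and 0.058). Without the wild type array at 4 h the Il10 change was 0.79 (adjusted p = 0.11), without the EGTA array at 2 h it was 0.73 (adjusted p = 0.11), and without the CD14-deficient array at 4 h it was 0.90 (adjusted p = 0.074). Tnf was at 13.25, 12.73 and 13.25 at 2 h and at 13.12, 12.29 and 12.87 at 4 h, so the EGTA arrays were lowest and the times overlapped (-0.32 ± 0.20, adjusted p = 0.22). The neutrophil chemokine Cxcl1 had a change of -0.99 ± 0.38 that missed the threshold (adjusted p = 0.053). Cxcl1 went from 12.85 to 12.08 in wild type cells, from 12.04 to 10.34 with EGTA and from 12.84 to 12.35 in CD14-deficient cells.

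**Figure D1:**
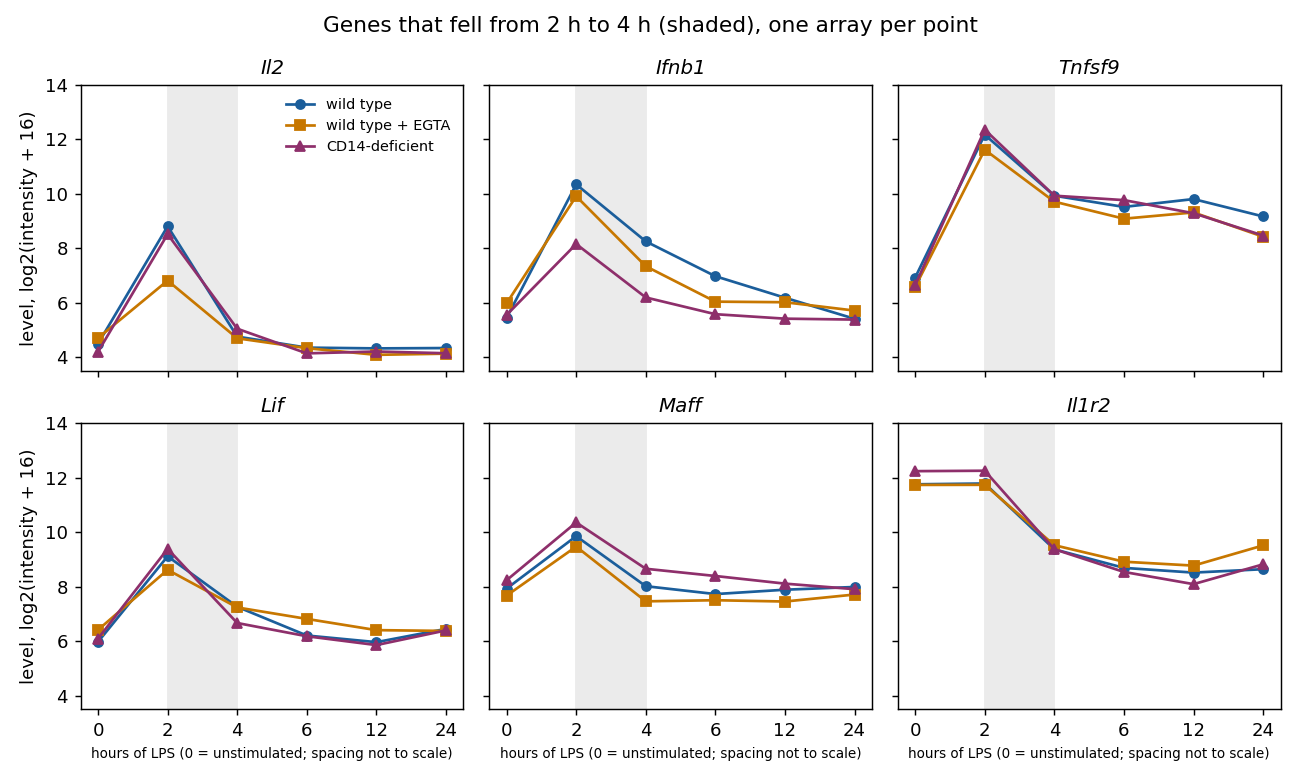
Level (log2 intensity + 16, y axis) of 6 genes that fell, by hours of LPS (x axis, spacing not to scale), with 1 line per condition and 1 array per point; the shaded band is 2 h to 4 h. Il2, Ifnb1, Tnfsf9, Lif and Maff were higher at 2 h than in unstimulated cells and dropped by 4 h, whereas Il1r2 started at 11.92 on average without LPS and dropped from about that level.

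Several abundant induced genes sat near the top of the scale, where the highest level on every array was 13.96, and showed little change. Il1b was at 13.58 to 13.66 at 2 h and at 13.54 to 13.63 at 4 h. The chemokine gene Cxcl2 was at 13.43 to 13.74 at 2 h and at 13.27 to 13.74 at 4 h. Il6 (0.21 ± 0.17), Il12b (0.09 ± 0.14) and Ptgs2, the inducible cyclooxygenase (0.27 ± 0.19), likewise did not pass the test. With levels so close to the top, a further rise of these genes could be compressed.

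The 32 genes that were at least 2-fold above the unstimulated mean at 2 h and fell at least 2-fold by 4 h form the shut-off group. By 4 h 23 of them were back within 2-fold of the unstimulated mean, and 9 were still at least 2-fold above it. None was 2-fold below it. Il23a had risen most (6.51 above the unstimulated mean) and kept 4.85 of this at 4 h, and Tnfsf9 kept 3.14 of 5.33. Full return was seen for Maff, a small MAF bZIP factor (1.95 above at 2 h, 0.10 at 4 h), and for Noct, a circadian NADP phosphatase (1.64 and -0.17). Enc1, an actin-binding protein of neurons (1.89 and -0.34), and Frmd6, a Hippo pathway protein (1.89 and -0.17), also returned. Bcl2l11, which encodes the pro-apoptotic protein Bim, rose by 1.84 and kept 0.36, and the small GTPase gene Rhob rose by 1.46 and kept 0.27. The GTPase Gem, the AP-1 repressor Jdp2, the stress protein Nupr1, the prostaglandin E2 receptor gene Ptger2 and the growth factor gene Pdgfb belong to the same group. With the mean of probe sets Jdp2 changed by -0.63 in place of -1.55, which is under 2-fold.

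**Figure D2:**
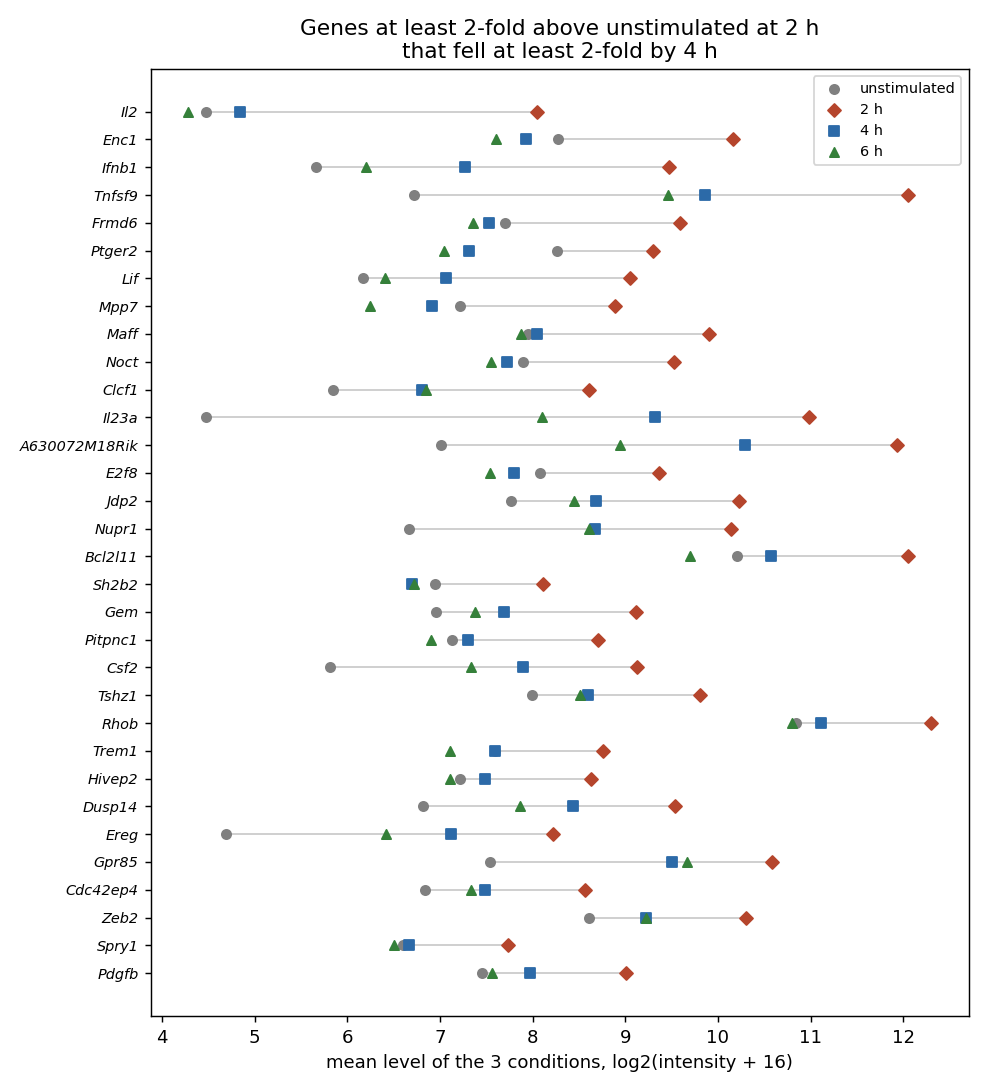
Mean level of the 3 conditions (log2 intensity + 16, x axis) in unstimulated cells and at 2, 4 and 6 h of LPS for the 32 genes, ordered by the size of the fall; the grey line joins unstimulated and 2 h. For 23 genes the 4 h square lies within 2-fold of the grey circle, and the 9 others, Il23a and Tnfsf9 among them, stay above it.

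Feedback regulators of the primary response did not move as 1 block. Of 12 tested NF-kB inhibitors and A20 family genes, 7 fell and 2 rose (median -0.39). Tnfaip3, which encodes the ubiquitin editor A20, went from 11.87, 11.72 and 11.87 in wild type, EGTA and CD14-deficient cells at 2 h to 11.31, 10.95 and 11.15 at 4 h. The times did not overlap, and the change was -0.68 ± 0.15 (adjusted p = 0.0031). The A20 partner Tnip1 (-0.55 ± 0.11), Tnfaip2 (-0.57 ± 0.10) and Nfkbiz, a nuclear IkB protein that secondary genes need (-0.55 ± 0.21, adjusted p = 0.049), also fell. The Nfkbiz call was lost without any 1 of the 6 arrays but the CD14-deficient array at 4 h (adjusted p of 0.052 to 0.16). Nfkbib (0.48 ± 0.09) and Tank (0.44 ± 0.08) rose. Nfkbia, the IkBa gene, was at 13.09 to 13.28 at 2 h and 13.19 to 13.23 at 4 h, also near the top of the scale.

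Among 7 tested MAP kinase phosphatases 3 fell and 3 rose (42.9% each, against 20.6% and 20.5% of all genes). Dusp14 (-1.11 ± 0.20) and Dusp3 (-0.99 ± 0.12) fell, while Dusp10 (1.17 ± 0.23, with another probe set at -0.21) and Dusp6 (0.92 ± 0.19) rose. Dusp1, which inactivates p38 and JNK, rose from 9.48 to 10.78 in wild type cells and from 10.08 to 11.68 with EGTA, but stood at 10.67 and 10.74 in CD14-deficient cells (0.99 ± 0.26, adjusted p = 0.0087). Its call was lost without the wild type array at 2 h (0.80, adjusted p = 0.053) and without the EGTA array at 2 h (0.72, adjusted p = 0.053). Of 11 mRNA decay regulators 2 rose (18.2%) and 4 fell (36.4%), against 20.5% and 20.6% of all genes. Zfp36, which encodes the AU-rich element binding protein TTP, rose by 0.94 ± 0.18 (adjusted p = 0.00098). It was at 9.56, 9.34 and 9.95 at 2 h and at 10.67, 10.77 and 10.25 at 4 h, without overlap. The RNase gene Zc3h12a fell by 0.59, a call that was lost in turn without the wild type (-0.51, adjusted p = 0.083) or EGTA (-0.60, adjusted p = 0.052) array at 4 h or the CD14-deficient array at 2 h (-0.41, adjusted p = 0.097).

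Of 23 immediate early transcription factor genes, 7 fell (30.4%) and 4 rose (17.4%), against 20.6% and 20.5% of all genes (median -0.16). Maff was at 9.86, 9.48 and 10.36 at 2 h in wild type, EGTA and CD14-deficient cells, and at 8.02, 7.47 and 8.66 at 4 h, with no overlap (-1.85 ± 0.15, adjusted p = 1.4e-06). The AP-1 subunit genes Fosb (-2.17 ± 0.35) and Fos (-0.78 ± 0.13) also fell, though both were below their unstimulated means of 9.28 and 10.10 by 2 h. Egr1 (-0.30 ± 0.19) and the nuclear receptor gene Nr4a1 (-0.67 ± 0.30) did not pass the test. Atf3, Klf6, Ier3 and Myc rose. Ier3 (0.87 ± 0.24) lost its call without either EGTA array (adjusted p = 0.057 and 0.056), and Myc (0.77 ± 0.27) without either EGTA array or the wild type array at 4 h (adjusted p of 0.082 to 0.19). Of the 4 tested NF-kB subunit genes, Nfkb2 rose (0.46 ± 0.13, with another probe set at -0.20, and 0.13, adjusted p = 0.28, with the mean of probe sets) and Rel, Relb and Rela did not pass.

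The larger set of falls was in genes that were not as much as 2-fold above the unstimulated mean at 2 h. Il1r2, the decoy receptor of interleukin 1, went from 11.79, 11.74 and 12.26 in wild type, EGTA and CD14-deficient cells at 2 h to 9.38, 9.53 and 9.38 at 4 h, from an unstimulated mean of 11.92. The 4 h arrays lay close together and well below the 2 h arrays (-2.50 ± 0.19, adjusted p = 1.0e-06). Chn2, a Rac GTPase-activating protein, fell by 2.48, the sialyltransferase gene St6gal1 by 2.31, the transcription factor gene Sox4 by 2.10 (5 other probe sets between -1.25 and 0.20) and the endocytic adaptor gene Hip1 by 2.06 on the log2 scale. Scel (-2.08 ± 0.24) and Hepacam2 (-1.97 ± 0.22) complete the 15 largest falls. With pseudocount 64 the changes of the dim genes Chn2, Hip1, Scel and Fosb were -1.51, -1.31, -1.36 and -1.24. With the mean of probe sets those of St6gal1 and Hip1 were -1.39 and -1.33. Hepacam2 and Sox4 were higher again at 24 h, with means of 10.18 and 8.08 against 7.02 and 5.85 at 4 h. Ccr2, the receptor of monocyte chemokines, went from 8.04, 7.93 and 8.32 at 2 h to 6.17, 6.07 and 6.55 at 4 h, below an unstimulated mean of 10.35 (-1.84 ± 0.24, adjusted p = 7.2e-05). The Ccr2 change was -1.22 with the mean of probe sets.

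Genes of growth and metabolism fell in number. Of 29 DNA replication and mitosis genes, 17 fell and 2 rose (median -0.54). Rrm2, the ribonucleotide reductase subunit, went from 9.83, 9.71 and 10.64 at 2 h to 8.28, 8.30 and 9.13 at 4 h, and the CD14-deficient array was highest at both times (-1.49 ± 0.15, adjusted p = 7.8e-06). The kinase gene Plk1 and the spindle protein gene Tpx2 were the 2 that rose. The call of Plk1 was lost without either wild type array, the EGTA array at 2 h or the CD14-deficient array at 4 h (adjusted p of 0.081 to 0.16), and that of Tpx2 without the wild type array at 2 h or either EGTA array (0.051 to 0.095). Of 14 genes of the TCA cycle 8 fell and 0 rose (median -0.31), led by the isocitrate dehydrogenase gene Idh1 (-1.41 ± 0.18). Of 20 genes of glycolysis and hypoxia 9 fell and 2 rose (median -0.35). The mitophagy gene Bnip3 (-1.54 ± 0.25), the glycolytic enzyme gene Tpi1 (-1.12 ± 0.13) and the glucose transporter gene Slc2a1 (-0.98 ± 0.19) fell, while Pfkfb3, the inducible activator of glycolysis, rose by 1.08 ± 0.13. Of 15 ribosome biogenesis genes 8 fell, among them Nop58 (-1.04 ± 0.14), and 1 rose. Of 15 ribosomal protein genes 5 fell and 0 rose (median -0.07), and 2 fell with median centring or with no scaling. Cholesterol synthesis (1 rose, 2 fell of 15) and the ER folding and stress list (0 rose, 4 fell of 19) stayed near or below the shares of all genes.

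In bulk RNA, fewer cells of a type and less RNA per cell cannot be told apart, and markers of other marrow cells are given here beside the falls. The median change of the 10 granulocyte markers was -0.43. Of these, 2 (Ltf and Ngp) fell in the fit over all LPS arrays, or 20%, near the 20.6% of all genes. When the 6 arrays were fitted alone 8 fell, in a fit where 1587 of all genes fell. The summed level of the granulocyte markers ran from 15.03 to 15.19 at 2 h and from 14.70 to 14.89 at 4 h. The 10 macrophage markers summed to 14.99 to 15.18 at 2 h and 14.46 to 14.91 at 4 h. They held 3 falls (30%) and 2 rises (20%), against 20.6% and 20.5% of all genes. With the 6 arrays fitted alone 6 macrophage markers fell, and with no scaling 5 did. The 8 dendritic cell markers summed to 12.68 to 12.93 at 2 h and 12.43 to 12.54 at 4 h. They held 2 falls among 6 tested (33.3%, Cd209a and Batf3), and 4 with no scaling. The call of Ngp was lost without any 1 of the 6 arrays but the CD14-deficient array at 2 h (adjusted p of 0.058 to 0.23), and that of Batf3 without either EGTA array (0.054 and 0.057). Itgax, the CD11c gene, was at 12.08 to 12.32 at 2 h and at 11.73 to 11.95 at 4 h. The part of these cell types in the falls was not tested. Mast cell and basophil markers held 1 fall (Kit) among 4 tested (25%). None of the 7 T and NK cell markers lay above the array median on any of the 6 arrays, and Cd3d and Cd4 were under an intensity of 16 on all 6. Of the 5 B16 melanoma markers, Mitf alone passed the filter (-0.24 ± 0.11), and of the erythroid markers Car2 alone (0.30 ± 0.22), and neither change was called.

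The rises were led by interferon-stimulated genes. Ms4a4c, a membrane-spanning 4A family gene, rose most, from 7.74 in wild type, 8.06 in EGTA and 6.12 in CD14-deficient cells at 2 h to 11.64, 11.77 and 10.89 at 4 h. The CD14-deficient array was the lowest at both times, and all 4 h arrays were far above all 2 h arrays (4.13 ± 0.16, adjusted p = 8.8e-09, 17.47-fold). Iigp1, an immunity-related GTPase, was at 9.09, 9.60 and 7.22 at 2 h and at 12.65, 12.43 and 10.92 at 4 h, in the same order (3.37 ± 0.16, adjusted p = 2.8e-08). Dhx58, which encodes the RNA sensor LGP2, was at 8.21, 7.87 and 6.53 and then at 10.87, 10.89 and 10.30 (3.15 ± 0.20, adjusted p = 2.5e-07). Of the other probe sets of Dhx58, 1 changed by 3.07 and 1 by 0.22. For both genes the times did not overlap.

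Of 52 tested genes in the interferon-stimulated list 51 rose, 0 fell and 1, Slfn2, did not pass, against 20.5% rising over all genes, and the median change was 1.62. Slfn2 was at 12.78 to 12.98 at 2 h. For 43 of the 52, all 4 h arrays lay above all 2 h arrays, against 1559 of all 7392 genes (21.1%). The antiviral exonuclease Isg20 (2.79 ± 0.14), the 2'-5' oligoadenylate synthetase Oas3 (2.96 ± 0.27), its relative Oasl2 (2.66 ± 0.46) and the translation inhibitor Ifit3 (2.61 ± 0.34) were among the 15 largest rises. The guanylate-binding protein gene Gbp3 (1.87 ± 0.10), the peptide transporter gene Tap1 (1.69 ± 0.12, with other probe sets at 1.26, 0.11 and -0.28) and the death ligand gene Tnfsf10 (2.36 ± 0.18) belong to the list as well. Cxcl10, the T cell chemokine, was already at 12.58 to 13.31 at 2 h and rose by 0.36 ± 0.13 (adjusted p = 0.040). That call was lost without the wild type array at 2 h, either EGTA array or the CD14-deficient array at 4 h (adjusted p of 0.053 to 0.21).

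Promoter sequences from RefSeq (GRCm38.p6), which listed 11 of the 15 largest rises and 13 of the 15 largest falls by symbol, show which letters the rising and falling genes carry. A window of 250 bases before to 50 after the start was searched on both strands for GAAANNGAA, the core of the interferon-stimulated response element (ISRE) bound by ISGF3 and IRF factors, for GGANTTTCC (NF-kB) and for TGANTCA (AP-1). TGACGTCA, the cAMP response element (CRE), was searched as well. The bases before the start are printed for Ifit3 and Oas3, which carry ISRE matches, for Ms4a4c, the largest rise, which carries no match, and for Ifnb1, which fell. Capitals mark matches.
Ifit3 (chr19:34583279-34583528, plus strand): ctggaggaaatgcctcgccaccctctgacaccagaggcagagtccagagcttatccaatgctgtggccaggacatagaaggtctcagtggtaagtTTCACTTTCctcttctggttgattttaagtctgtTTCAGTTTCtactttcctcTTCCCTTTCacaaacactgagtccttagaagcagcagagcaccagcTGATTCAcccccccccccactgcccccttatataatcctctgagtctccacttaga
Oas3 (chr5:120777660-120777909, minus strand): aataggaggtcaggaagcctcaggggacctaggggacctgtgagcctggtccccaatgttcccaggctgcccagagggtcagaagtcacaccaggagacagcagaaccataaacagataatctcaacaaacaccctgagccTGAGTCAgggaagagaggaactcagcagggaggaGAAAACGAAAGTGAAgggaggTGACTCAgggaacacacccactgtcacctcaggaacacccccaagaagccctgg
Ms4a4c (chr19:11407411-11407660, plus strand): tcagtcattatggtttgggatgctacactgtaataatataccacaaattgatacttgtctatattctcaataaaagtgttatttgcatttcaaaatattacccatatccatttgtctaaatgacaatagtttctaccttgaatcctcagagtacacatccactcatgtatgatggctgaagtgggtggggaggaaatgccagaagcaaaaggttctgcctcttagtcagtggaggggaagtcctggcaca
Ifnb1 (chr4:88522795-88523044, minus strand): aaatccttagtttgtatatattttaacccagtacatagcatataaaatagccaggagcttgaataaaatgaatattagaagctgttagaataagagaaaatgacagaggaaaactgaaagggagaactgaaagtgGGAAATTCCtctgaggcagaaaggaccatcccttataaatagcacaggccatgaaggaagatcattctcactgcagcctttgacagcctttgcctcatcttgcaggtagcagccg
Ifit3 holds 3 ISRE matches and 1 AP-1 match, Oas3 holds 2 overlapping ISRE matches and 2 AP-1 matches, and Ifnb1 holds 1 NF-kB match. The ISRE letters were present in 51.3% of the 39 listed promoters of interferon-stimulated genes, in 19.7% of 223 promoters of genes that rose at least 2-fold and in 7.04% of 142 promoters of genes that fell at least 2-fold. The share was 7.39% of the 6087 promoters of tested genes and 8.57% of all 27025 promoters in the table. Outside the interferon-stimulated list, 14.3% of 189 promoters of genes that rose at least 2-fold held them. NF-kB letters were in 1.35% of promoters of these rising genes, 1.41% of those of the falling genes, 1.46% of those of tested genes and 1.23% of all promoters. AP-1 letters were in 10.3%, 7.75%, 5.29% and 7.93%, in the same order, and in 7.94% of the rising genes outside the interferon-stimulated list. CRE letters were in 3.14% of promoters of the rising genes, 2.11% of those of the falling genes, 3.25% of those of tested genes and 1.88% of all promoters. A match is a description of letters and not a bound site.

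**Figure D3:**
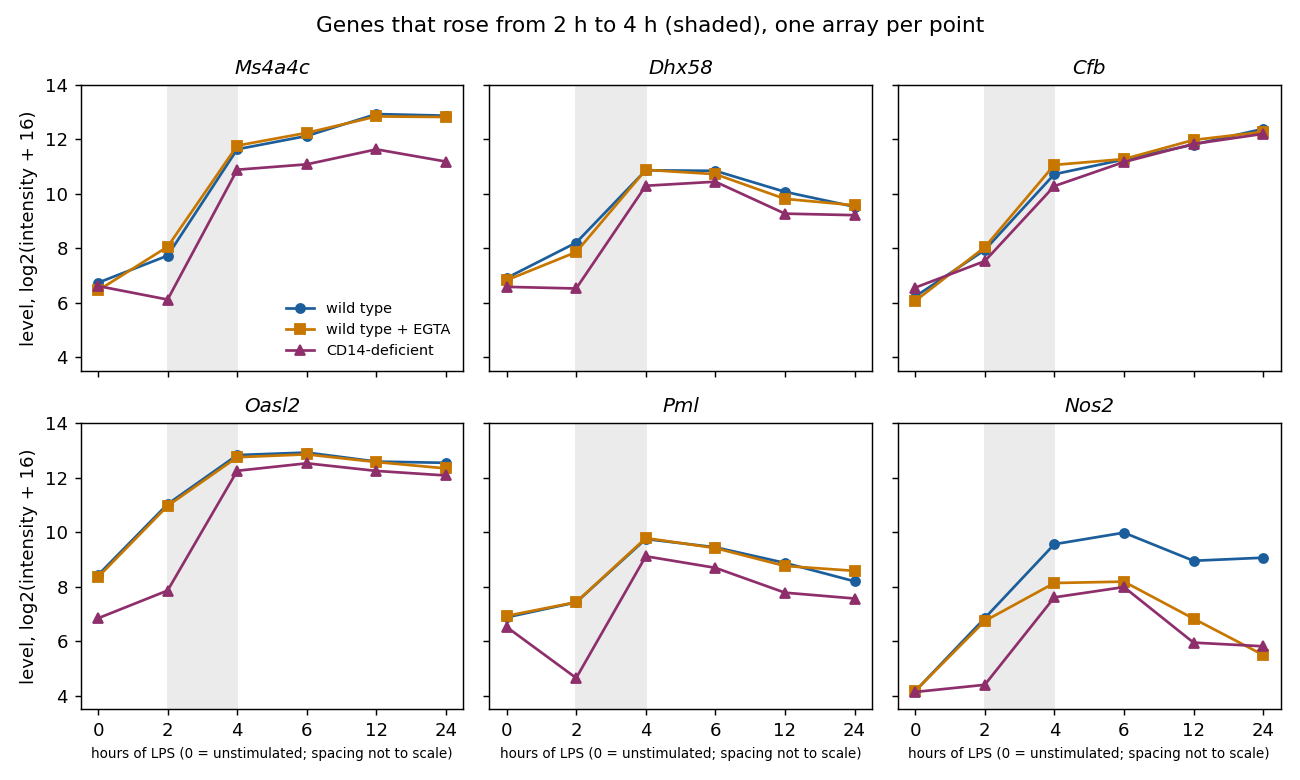
Level (log2 intensity + 16, y axis) of 6 genes that rose, by hours of LPS (x axis, spacing not to scale), with 1 line per condition and 1 array per point; the shaded band is 2 h to 4 h. In wild type and EGTA cells Oasl2 was near 11 at 2 h, while CD14-deficient cells were at 7.86 and reached 12.26 at 4 h; Cfb ran together in the 3 conditions.

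Transcription factors and sensors of the interferon response rose in part. Of 14 tested IRF and STAT genes 7 rose and 0 fell (median 0.23). Irf7, the factor that amplifies interferon production, was at 9.85, 9.37 and 7.46 in wild type, EGTA and CD14-deficient cells at 2 h and at 11.82, 11.68 and 10.92 at 4 h, without overlap (2.58 ± 0.24, adjusted p = 4.3e-06). Irf2 (1.42 ± 0.16), Stat2, a subunit of ISGF3 (1.18 ± 0.14), and Irf8 (0.59 ± 0.08) rose. Irf1 was at 11.64, 11.74 and 10.61 and then at 11.48, 11.61 and 10.64, and its change of -0.08 ± 0.18 did not pass the test. Tlr3, the receptor of double-stranded RNA, rose by 2.56 ± 0.17 and was lowest in CD14-deficient cells at both times (5.73 and 8.38). Of 12 other Toll-like and cytosolic sensors 6 rose and 2 fell, with Tlr1 (0.96 ± 0.14) and Tlr6 (0.81 ± 0.14) among the rises and the amplifying receptor gene Trem1 (-1.17 ± 0.18) among the falls. Of 12 LPS receptor and TLR4 adaptor genes 6 rose and 0 fell: Myd88 (0.70 ± 0.07), the kinase genes Tbk1 (0.69 ± 0.08) and Ikbke (0.56 ± 0.11), the MD-2 gene Ly96 (0.48 ± 0.07), and Tlr4 and Map3k8. The Tlr4 call was lost without the EGTA array at 2 h or the CD14-deficient array at 4 h (adjusted p = 0.12 and 0.090). The SOCS list of signal inhibitors had 4 rises (40%) and 1 fall (10%) among 10, against 20.5% and 20.6% of all genes. Its rises were led by Socs1 (0.88 ± 0.12), and with no scaling 1 gene rose and 1 fell.

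Of 22 tested secondary inflammatory genes, 14 rose and 0 fell (median 0.70). With the 6 arrays fitted alone, 19 rose and 1 fell. Mpo, which is also among the granulocyte markers, had a change of -0.53 ± 0.23 that did not pass the test. Cfb, complement factor B, rose from 7.94, 8.04 and 7.53 in wild type, EGTA and CD14-deficient cells at 2 h to 10.72, 11.07 and 10.29 at 4 h, with similar values in the 3 conditions and no overlap of the times (2.85 ± 0.12, adjusted p = 8.8e-09). Nos2, the inducible nitric oxide synthase gene, was at 6.85, 6.75 and 4.40 at 2 h, where its unstimulated mean was 4.16, and at 9.56, 8.14 and 7.61 at 4 h. The CD14-deficient array at 2 h was still near the unstimulated level, and the wild type array was the highest at 4 h (2.44 ± 0.46, adjusted p = 0.0010). Il15 (2.17 ± 0.22), Il12a, the p35 subunit of interleukin 12 (1.70 ± 0.17), the scavenger receptor gene Marco (1.38 ± 0.17) and the acute phase gene Saa3 (1.08 ± 0.10) rose. Acod1, the itaconate synthase gene, was at 12.89 to 13.09 at 2 h, and its rise of 0.16 ± 0.06 (adjusted p = 0.048) was lost with no scaling (0.12, adjusted p = 0.20) and without any 1 of the 6 arrays but the EGTA array at 2 h (adjusted p of 0.056 to 0.22). Arg1, the arginase that uses the same substrate as Nos2, fell from 12.38, 12.29 and 10.83 to 10.93, 10.72 and 9.20 (-1.55 ± 0.25, adjusted p = 0.00034). The 2 h level in CD14-deficient cells lay just under the wild type level at 4 h, so the times overlapped.

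Antigen presentation and maturation genes split by class. Of 14 MHC class I processing genes 8 rose and 1, Canx, fell (median 0.47). The peptide transporter genes Tap1 and Tap2 (1.26 ± 0.09) and the immunoproteasome subunit genes Psmb9 (1.30 ± 0.11) and Psmb10 (1.17 ± 0.08) were the largest rises. Of 10 MHC class II genes 6 fell and 1, the class II transactivator gene Ciita, rose (median -0.30), and 4 fell with median centring. The Canx call was lost without any 1 of the 6 arrays but the EGTA array at 2 h (adjusted p of 0.058 to 0.17), and that of Ciita without the wild type array at 2 h, either EGTA array or the CD14-deficient array at 4 h (0.091 to 0.18). H2-DMb2 (-0.74 ± 0.12) and H2-DMa (-0.64 ± 0.13), which load peptides onto class II, fell. Of 23 maturation genes 11 rose and 2, Icosl and Icam1, fell (median 0.36). Cd40, the costimulatory receptor, was at 11.94, 11.96 and 11.52 at 2 h and at 12.84, 12.82 and 12.55 at 4 h, without overlap (0.93 ± 0.07, adjusted p = 1.3e-06). Ccr7, the receptor that guides dendritic cells to lymph nodes, went from 11.28, 11.63 and 11.40 to 12.43, 12.67 and 12.44 (1.07 ± 0.08, adjusted p = 9.8e-07). Cd86 rose by 0.80 ± 0.09 and the immune inhibitory ligand genes Cd200 and Cd274 by 1.02 ± 0.08 and 0.75 ± 0.09.

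Death receptor and cell death genes mostly moved upward where they passed the test. Of 10 TNF receptor and death ligand genes 7 rose and 0 fell (median 0.66), with Fas going from 8.83, 8.83 and 8.95 at 2 h to 10.26, 10.14 and 10.24 at 4 h, an even rise in the 3 conditions (1.34 ± 0.10, adjusted p = 1.1e-06). Of 16 apoptosis and survival genes 9 rose and 3 fell. The inflammatory caspase genes Casp1 (1.36 ± 0.07) and Casp4 (1.00 ± 0.10) and the BH3 protein gene Bid (1.52 ± 0.14) rose, and Bcl2l11 fell from 11.84, 12.32 and 11.97 to 10.13, 11.11 and 10.48 (-1.47 ± 0.13, adjusted p = 3.1e-06). Of 13 calcium and NFAT genes 4 fell (30.8%) and 1 rose (7.69%), against 20.6% and 20.5% of all genes. Ppp3cc rose (0.47 ± 0.12). Besides Il2 the falls were the NFAT gene Nfatc1 (-1.20 ± 0.11), its target Rcan1 (-0.82 ± 0.15) and the calcineurin subunit gene Ppp3ca (-0.68 ± 0.13). The Ppp3cc call was lost without the CD14-deficient array at 4 h (0.37, adjusted p = 0.054). Max, the MYC partner gene (2.71 ± 0.42), and the POU factor gene Pou3f1 (2.77 ± 0.32, with another probe set at 1.01) were among the largest rises outside the lists. The plasmacytoid dendritic cell markers Bst2 (1.43 ± 0.09), which is also in the interferon-stimulated list, and Tcf4 (2.05 ± 0.13) rose, and the 4 markers of that list summed to 9.90 to 10.75 at 2 h and 11.68 to 12.27 at 4 h. The 2 other plasmacytoid markers, Ccr9 and Ly6d, lay below the array median on all 6 arrays. Of the B cell markers Blnk rose (1.22 ± 0.13) and Ighm did not pass (-0.11 ± 0.18). The other 4 of the 6 measured (Cd79a, Cd79b, Ms4a1 and Pax5) lay below the array median on all 6 arrays. The part of these cell types in the rises was not tested.

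**Figure D4:**
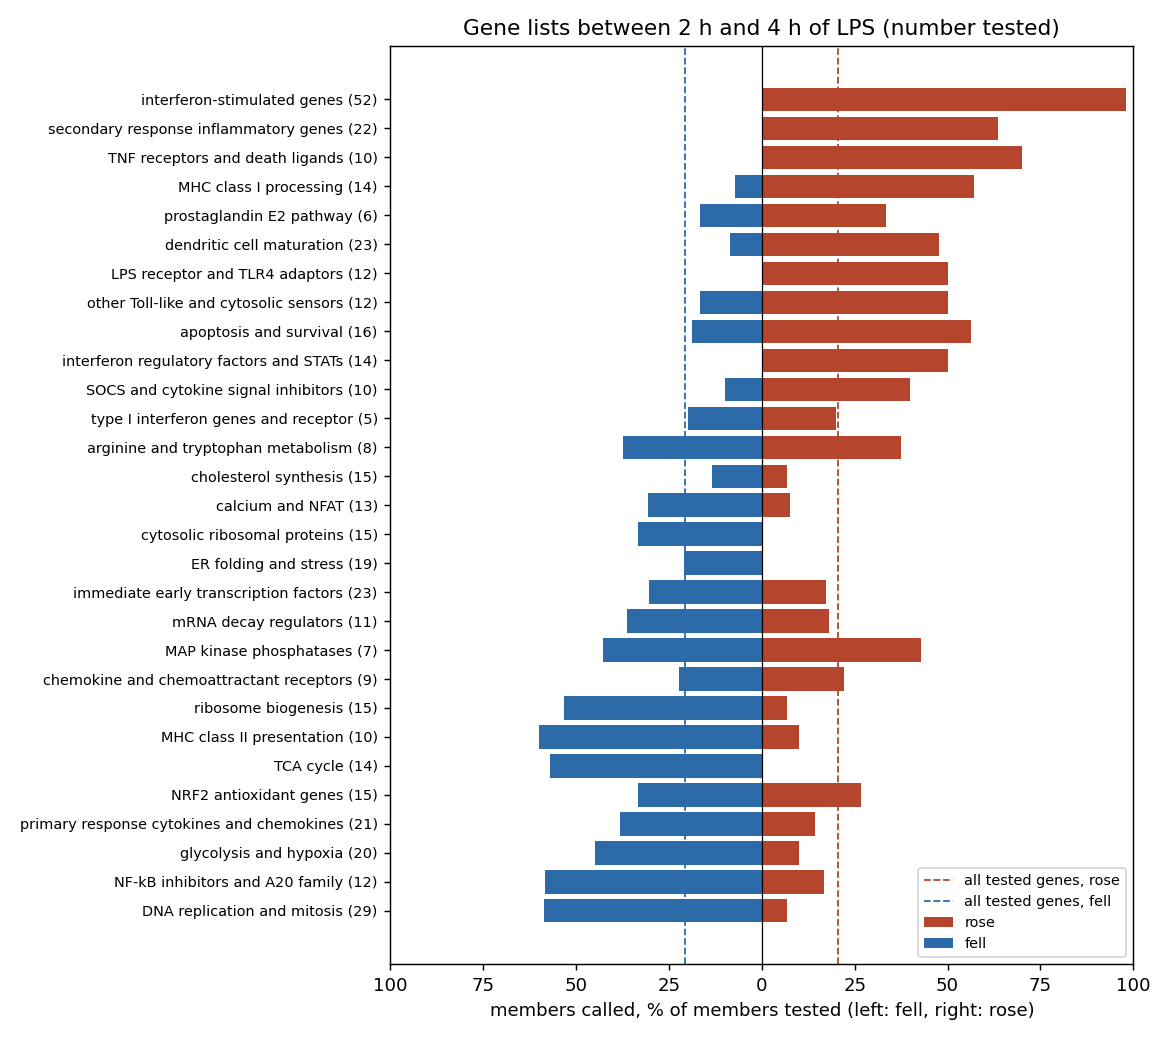
Share of tested members that rose (right) or fell (left), in percent, for 29 gene lists ordered by median change, with the number tested in brackets; dashed lines mark 20.5% and 20.6%, the shares over all genes. Interferon-stimulated genes reach furthest to the right and NF-kB inhibitors, MHC class II, DNA replication and TCA cycle genes furthest to the left.

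The change from 2 h to 4 h differed between CD14-deficient and wild type cells for 24 genes (0.325% of those tested), by a limma interaction term that assumes the lone array of a condition and time to vary like the later arrays (4 residual degrees of freedom). Of these, 22 had a larger change in CD14-deficient cells, and 14 of the 22 are in the interferon-stimulated list. Oasl2 rose from 11.03 to 12.83 in wild type cells and from 7.86 to 12.26 in CD14-deficient cells, a difference in change of 2.59 ± 0.14 (adjusted p = 0.00017). Pml, the nuclear body scaffold, went from 7.43 to 9.75 and from 4.65 to 9.12 (2.15 ± 0.29, adjusted p = 0.020). Its CD14-deficient level at 2 h was near the low end of the scale, and the difference was 3.31 with pseudocount 1 and 1.00 (adjusted p = 0.34) with pseudocount 64. Ifit1 went from 12.56 to 13.19 and from 10.01 to 12.68 (2.03 ± 0.21, adjusted p = 0.0045), and in wild type cells it was near the top of the scale. The Ras GTPase-activating gene Rasa4 (2.32 ± 0.27), Ifit2 (2.30 ± 0.35) and Irgm1 (1.97 ± 0.21) also differed. Ifit2 was near the top of the scale too, with a mean of 13.19 over the 3 conditions at 4 h. In each of the genes named here the CD14-deficient array was far below wild type at 2 h and less than 1 log2 unit below it at 4 h.

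The interferon-stimulated list as a whole had the same shape. Its median level in wild type cells was 7.95 unstimulated, 10.18 at 2 h and 11.70 at 4 h, and in EGTA cells 8.04, 10.21 and 11.67. In CD14-deficient cells it was 7.40, 8.72 and 11.01. The median difference between CD14-deficient and wild type cells was -1.46 at 2 h and -0.55 at 4 h, and 52 of 52 genes were lower at both times. The change was larger in CD14-deficient cells for 50 of the 52, against 3883 of all 7392 genes. For 44 of the 52 the CD14-deficient array at 4 h was above the wild type array at 2 h. Ifnb1 itself fell by similar amounts, 2.09 in wild type and 1.96 in CD14-deficient cells.

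The calls of this contrast rest on few arrays and, for dim genes, on the pseudocount. Oas3 differed by 1.63 ± 0.25 (adjusted p = 0.034) and, with pseudocount 64, by 1.01 (adjusted p = 0.28). Rasa4 differed by 1.46 (adjusted p = 0.039) with pseudocount 64. With no filter the calls of Pml, Ifit2, Oas3 and Uroc1 were lost (adjusted p of 0.060 to 0.10). Without the EGTA arrays at 12 h and 24 h, which had the lowest RNA integrity and enter only the spread, 5 genes were called (Oasl2, Ifit3, Irgm2, Rtp4 and Trim30a, all also among the 24), and with no filter on dim genes 13 were. Sncb and Uroc1 were the 2 genes with a smaller change in CD14-deficient cells (-3.13 ± 0.31, adjusted p = 0.0045, and -1.90 ± 0.27, adjusted p = 0.024). Sncb went from 5.58 to 7.94 in wild type cells, from 7.02 to 6.96 with EGTA and from 6.86 to 6.09 in CD14-deficient cells, so the wild type arrays were the lowest (2 h) and the highest (4 h) of the 6. Another probe set of Uroc1 changed by -0.10 where the one used changed by 0.31.

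No gene passed the same test for EGTA against wild type cells (0 of 7392, or 0%; 273 at an unadjusted p under 0.05, where the CD14-deficient contrast had 408). About 0.05 of tested genes reach an unadjusted p under 0.05 where nothing differs, so neither unadjusted count is read as a signal. The median difference in change over the interferon-stimulated list was -0.02 with EGTA and 0.87 in CD14-deficient cells. A count of 0 does not show that EGTA and wild type cells changed alike. Il2 changed by -4.05 in wild type and -2.12 in EGTA cells, a difference of 1.93 ± 0.70, and Nos2 by 2.71 and 1.39, a difference of -1.32 ± 0.75, and neither passed the test (adjusted p = 0.9996 for both).

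**Figure D5:**
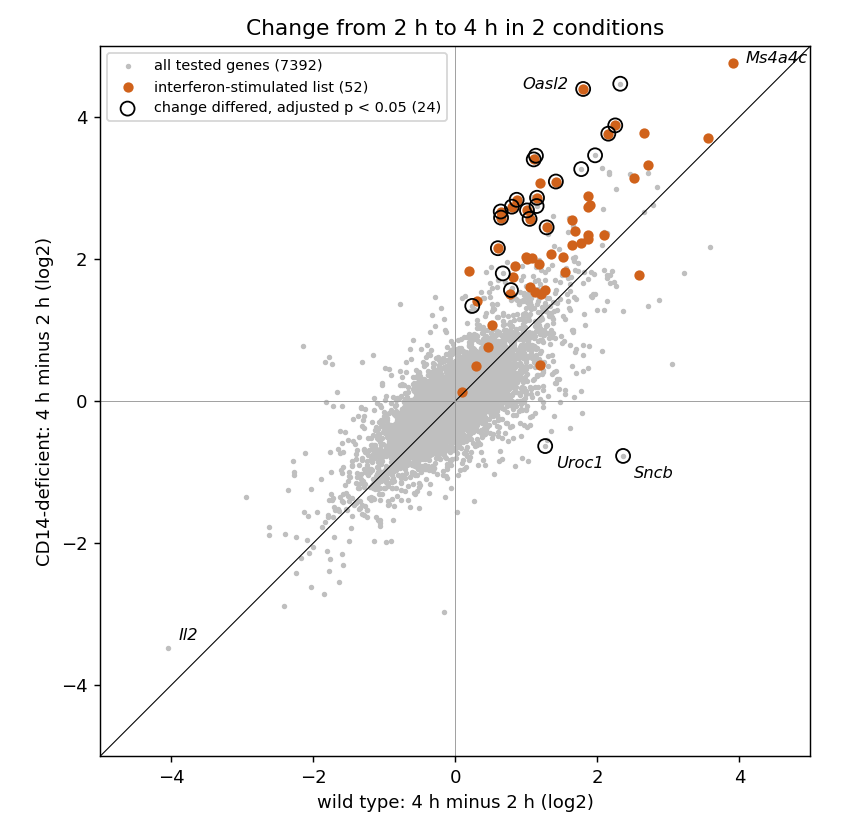
Change from 2 h to 4 h (log2) in wild type cells (x axis) and in CD14-deficient cells (y axis) for the 7392 tested genes, with the 52 interferon-stimulated genes in orange and the 24 genes whose change differed circled; the line marks equal change. Of the orange points 50 lie above the line, and Sncb and Uroc1 are the circled points below it.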

How the data were processed

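RNA of each sample was hybridised to 1 Affymetrix array, 18 in all, with 22690 probe sets each. The authors deposited linear intensities made with MAS5, per the submitters' processing notes, with no version or scaling target in the sources used here. Intensities were quantile normalised over the 18 arrays and written as log2(intensity + 16), with all arrays given equal weight; the number of arrays limits the precision. Probe sets with 1 gene symbol in the platform annotation (20393; 691 had several, 1606 none) were named, 20364 through RefSeq (GRCm38.p6), and the brightest of each gene was kept (12394 genes). Genes above the array median on at least 2 of the 15 LPS arrays (7392) were tested with limma 3.58.1 (R 4.3.3; lmFit and eBayes with trend) on time and condition, with Benjamini-Hochberg adjustment at 0.05. The 3 conditions pair the times by design, so condition is the block; differences between conditions were tested as interaction terms. All adjusted p-values are limma's. The fits were tested on simulated data, drawn with independent noise of the spread fitted for each gene. Such data cannot check the spread between cultures or animals.

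Named genes were the 15 largest rises and falls moving the same way in the 3 conditions, up to 4 genes per list by p, a list of well known genes, and up to 6 genes each way per interaction. Genes named beyond that rule were chosen after their values were seen. The members and lists were chosen with earlier results of these data known. Alternatives changed the scaling, the pseudocount, the filter, the probe set rule, the arrays fitted and the block.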

Additional observations from a re-analysis of the deposited data

Results flagged for a closer look

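The change from 2 h to 4 h differed between CD14-deficient and wild type cells for 24 genes by limma's interaction test. The genes named from among them, given as the CD14-deficient minus the wild type change on the log2 scale, were Oasl2 (2.59), Rasa4 (2.32), Ifit2 (2.30), Pml (2.15), Ifit1 (2.03), Irgm1 (1.97), Irgm2 (1.94), Rtp4 (1.94), Trim30a (1.71), Oas3 (1.63), Ifit3 (1.61) and Irf7 (1.49), with a larger change in CD14-deficient cells. Sncb (-3.13) and Uroc1 (-1.90) had a smaller one. With pseudocount 64 the calls of Pml (1.00, adjusted p = 0.34) and Oas3 (1.01, adjusted p = 0.28) were lost, and with no filter on dim genes those of Pml, Ifit2, Oas3 and Uroc1.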

How the results depend on the processing

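Without the replicate block (condition left out of the fit), 1786 genes were called in place of 3040. The CD14-deficient contrast gave 13 genes with no filter on dim genes and 5 without the EGTA arrays at 12 h and 24 h. Leaving out 1 array, or both arrays of 1 condition, gave 2074 to 2895 called genes, 431 to 502 changed at least 2-fold, 24 for the CD14-deficient contrast and 0 for the EGTA contrast. The contrasts could not be fitted without an array of their own 2 h to 4 h change, so those results have no such check. Under the other alternatives 2449 to 3115 genes were called, and 310 (pseudocount 64) to 535 (pseudocount 1) changed at least 2-fold. With no scaling the median EGTA minus wild type change was 0.29, so that contrast depends on scaling.

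Of 144 called genes named in the text, 100 kept their direction and call under each alternative run. No called gene changed sign. Genes without a call that changed sign were Cd14 (0.00061 with pseudocount 1; -0.39 to 0.073 leaving out arrays), Cxcl2 (0.016) and Il1b (0.048) with median centring, and Nfkbia (-0.0014 with no scaling, -0.081 with the mean of probe sets, -0.065 to 0.072 leaving out arrays). With arrays left out, the change ran from -0.0044 to 0.49 for Car2, from -0.23 to 0.038 for Ighm, from -0.016 to 0.21 for Il12b, from -0.25 to 0.021 for Irf1, from -0.069 to 0.030 for Rela, from -0.41 to 1.15 for Sncb and from -0.17 to 0.87 for Uroc1. The cause was not tested. Levels near the top of the scale and 1 array per condition and time limit what these data can show.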

Other observations

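Genes of redox, lipid mediator and amino acid metabolism moved in both directions, as did all tested genes (20.6% fell and 20.5% rose). Of 15 tested NRF2 antioxidant genes, 5 fell (33.3%) and 4 rose (26.7%), with a median change of -0.31. The falls included Srxn1, a sulfiredoxin (-1.16 ± 0.17), and Gclc, the catalytic subunit of glutathione synthesis (-0.97 ± 0.16), while Keap1, the NRF2 inhibitor, rose by 1.25 ± 0.09. Of 6 prostaglandin E2 pathway genes, 2 rose and 1 fell, and the receptors went opposite ways: Ptger2 fell by 1.99 on the log2 scale and Ptger4 rose by 0.50 ± 0.08. Of 8 arginine and tryptophan genes, 3 rose and 3 fell. Nos2, the arginine transporter gene Slc7a2 (0.93 ± 0.25) and Ido1, which degrades tryptophan (1.19 ± 0.17), rose, and Arg1, Arg2 (-0.50 ± 0.11) and the polyamine synthesis gene Odc1 (-0.91 ± 0.10) fell. The Slc7a2 call was lost without the wild type array at 2 h or the EGTA array at 4 h (adjusted p = 0.053 and 0.056). Of 9 chemoattractant receptors, Ccr7 and Fpr2 (0.91 ± 0.10) rose and Ccr2 and Cxcr4 (-0.72 ± 0.16) fell. This was 22.2% each way, near the shares of all genes.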
